A study of Mus musculus with 12 samples.

Results

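The receptors described here belong to the leukocyte immunoglobulin-like receptor (Lilr), triggering receptor expressed on myeloid cells (Trem) and Cd300 families of mouse myeloid cells, together with the signalling adaptor Tyrobp. The 10 members, of 56953 genes in the deposited tables, were Lilra5, Lilra6, Lilrb4a, Trem1, Trem2, Trem3, Treml2, Treml4, Cd300e and Tyrobp, and each was matched to its row by mouse symbol. Lilra5 and Lilra6 were chosen by their measured values, which ran in opposite directions between the monocyte groups, so their levels there are given as a description with no test.

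Receptors of these families sit on the surface of monocytes, macrophages and neutrophils and come in activating and inhibitory forms. An activating receptor has a short cytoplasmic tail and signals through a separate adaptor, such as Tyrobp (also called DAP12) or the Fc receptor gamma chain Fcer1g, whose ITAM motif recruits the kinase Syk. An inhibitory receptor such as Lilrb4a carries ITIM motifs in its own tail and recruits phosphatases such as Ptpn6. Trem2 binds lipids and lipoproteins and is known from microglia, osteoclasts and lipid-handling macrophages, whereas Trem1 is known as an amplifier of inflammation on neutrophils and monocytes.

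RNA was measured in 4 populations of myeloid cells sorted from the bone marrow of female C57BL/6J mice of 8 weeks, with 3 libraries each. Macrophages, which the study gated as F4/80hi CD206+ VCAM1+ cells, were split by origin in mice with Rank cre/+ and a Cre-dependent eYFP reporter in the Rosa26 locus. In this model Cre is driven from the Rank locus, which labels macrophages of embryonic origin: eYFP+ macrophages are the embryonic group and eYFP- macrophages the adult-derived group. Monocytes were sorted as Ly6Chi, the classical subset, and Ly6Clo, the non-classical subset. The reporter reads Cre activity in the past of a cell, so a cell that escaped recombination would be sorted as eYFP-. No source used here says whether the 3 libraries of a group came from separate mice, and p-values therefore measure the spread between these samples, which may be technical.

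The libraries held 26390927 to 48618187 counts. Sorting markers followed the labels: Vcam1, an adhesion molecule used in that macrophage gate, was at 8965 to 14369 TPM (transcript abundance per length, scaled per library) in macrophages and at 14.4 to 90.2 TPM in monocytes, and Ly6c2, the sorting marker of monocytes, was at 5809 to 6963 TPM in Ly6Chi against 32.4 to 77.5 TPM in Ly6Clo monocytes. Library 2 of the Ly6Clo group and library 1 of the eYFP+ group stood apart. Across genes, which are not independent replicates, the former correlated at a Pearson r of 0.949 with the mean of its group's other libraries, against 0.978 and 0.980 for those, and the latter at 0.978 against 0.988 and 0.987. In Ly6Clo library 2, the lectin gene Cd209a was at 91254 normalized counts (counts divided by the size factor of the library) against 16229.9 and 16954 in the other two, and the Ly6Clo marker Ace was at 5218 against 17345 and 12342. Where a difference below turned on one of these libraries, its value without that library follows. In bulk RNA, fewer cells of a type and less RNA per cell cannot be told apart.

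The promoters of Lilra5 and Lilra6 are shown because these related genes had the opposite patterns described below, and that of Trem2 because it was the member with its highest levels in macrophages. The RefSeq promoter table (build GRCm38.p6, another build than that of the deposited counts) held 6 of the 10 members: Lilra5, Lilra6, Trem1, Trem2, Treml4 and Cd300e. Each window runs from 250 bases before to 50 bases after the start of the gene, 5′ to 3′ on the strand of the gene, at chr7:4237504-4237803 (plus strand) for Lilra5, chr7:3915452-3915751 (minus strand) for Lilra6 and chr17:48346151-48346450 (plus strand) for Trem2. Capitals mark matches, on either strand, to GAGGAAGT (bound by PU.1), AAAGGTCA (bound by Nr4a1) and TTGCNNAA (bound by C/EBP factors).
Lilra5: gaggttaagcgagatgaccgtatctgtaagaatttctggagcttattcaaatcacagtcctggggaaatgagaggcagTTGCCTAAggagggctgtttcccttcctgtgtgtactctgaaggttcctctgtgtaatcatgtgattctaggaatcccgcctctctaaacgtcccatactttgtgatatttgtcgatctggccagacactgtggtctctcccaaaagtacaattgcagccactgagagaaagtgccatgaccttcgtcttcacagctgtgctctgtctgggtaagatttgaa
Lilra6: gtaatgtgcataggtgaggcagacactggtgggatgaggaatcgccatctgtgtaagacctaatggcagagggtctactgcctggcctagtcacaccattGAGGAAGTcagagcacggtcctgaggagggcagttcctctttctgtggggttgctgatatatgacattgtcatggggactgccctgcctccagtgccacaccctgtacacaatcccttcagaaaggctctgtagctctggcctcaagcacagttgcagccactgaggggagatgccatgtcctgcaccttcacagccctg
Trem2: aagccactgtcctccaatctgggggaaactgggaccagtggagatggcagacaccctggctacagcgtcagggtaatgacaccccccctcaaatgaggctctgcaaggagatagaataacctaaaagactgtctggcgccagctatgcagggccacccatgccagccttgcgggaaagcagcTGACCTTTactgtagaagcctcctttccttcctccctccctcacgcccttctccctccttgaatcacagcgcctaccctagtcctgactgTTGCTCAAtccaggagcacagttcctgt
The Lilra6 window held the PU.1 letters at base -150, counted from the start of the gene, and the Lilra5 window the C/EBP letters as TTGCCTAA at base -172, both on the strand of the gene. In the Trem2 window the Nr4a1 letters lay on the opposite strand from base -68, so that the strand shown reads TGACCTTT, and the C/EBP letters lay at base 22 as TTGCTCAA. None of the matches overlapped. Of 32851 promoters of the same length, 3.20% held GAGGAAGT, 1.51% held AAAGGTCA and 10.8% held TTGCNNAA. The windows of Trem1, Treml4 and Cd300e held none of these letters. A match describes the letters and is not a binding site.

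Lilra5, an activating Lilr receptor, was high in Ly6Clo monocytes, intermediate in both macrophage groups and low in Ly6Chi monocytes. Its normalized counts were 7324, 14462 and 11427 in the Ly6Clo libraries and 87.0, 81.4 and 200.4 in the Ly6Chi libraries. In macrophages they were 4533, 3199 and 3027 for eYFP+ and 2469, 2054 and 1969 for eYFP-. No 2 of the 4 groups overlapped, and the group means ran from 11071 ± 3582 (SD, n = 3) in Ly6Clo through 3586 ± 824 and 2164 ± 268 in the macrophages to 123 ± 67.2 in Ly6Chi. The mean in Ly6Clo monocytes was 90.1 times that in Ly6Chi monocytes, and without Ly6Chi library 3 the log2 difference between the monocyte groups moved from -6.49 to -7.04.

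Lilra6, a member of the activating Pira-type receptors of the same family, ran the other way. It reached 6252, 7539.6 and 6765 normalized counts in the Ly6Chi libraries and only 320.0, 300.1 and 280.4 in the Ly6Clo libraries. The macrophages were lower still, with 265, 101 and 206 in eYFP+ and 176, 205 and 182 in eYFP-. Ly6Chi monocytes had 22.8 times the mean of Ly6Clo monocytes, the Ly6Clo libraries lay above all macrophage libraries, and the macrophage groups overlapped. On the TPM scale, which divides by gene length and so lets genes be compared, Lilra6 was 33.8 to 92.9 times Lilra5 in the Ly6Chi libraries, while Lilra5 was 22.8 to 48.1 times Lilra6 in the Ly6Clo libraries and 10.01 to 31.6 times in the macrophage libraries. Lilra6 is close in sequence to the Pira genes and Pirb, so how reads were split between these copies is uncertain.

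Lilrb4a, an inhibitory receptor with ITIM motifs, was highest in Ly6Chi monocytes, at 14462, 15744 and 17326 normalized counts. Ly6Clo monocytes had 6979.7, 4361 and 3818, eYFP+ macrophages 4162, 3194 and 3181, and eYFP- macrophages 1027, 2989 and 1357. The Ly6Chi libraries lay above all others, the Ly6Clo and eYFP+ libraries overlapped, and all eYFP- libraries lay below all eYFP+ libraries. By TPM the macrophage groups overlapped, with eYFP- library 2 at 125.1 against 121.8 in eYFP+ library 2. By TPM, Lilrb4a was 1.91 to 3.08 times its neighbour Lilr4b (a near-identical receptor without ITIM motifs, also called Lilrb4b) in the Ly6Clo libraries, 3.96 to 4.32 times in the Ly6Chi libraries and 2.74 to 11.8 times in the macrophage libraries. The reads of this pair may be split unevenly between the copies.

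Trem1 and Trem3, activating receptors that pair with Tyrobp, were higher in both monocyte groups than in macrophages. Trem1 was at 1819.8, 1720.3 and 2801 normalized counts in Ly6Clo, at 364, 358 and 529.7 in Ly6Chi, and between 7.40 and 42.7 over the 6 macrophage libraries. Trem3 was at 2777, 5829 and 2861 in Ly6Clo, at 1823, 1697 and 1966 in Ly6Chi, and between 10.4 and 83.3 in the macrophages. For both genes the order was Ly6Clo, Ly6Chi, eYFP- and eYFP+, the monocyte groups did not overlap each other or the macrophages, and the macrophage groups overlapped. Neutrophils also carry Trem1 and Trem3, so the summed level of 10 neutrophil and precursor markers stands beside them: it was 227044 to 347034 normalized counts in Ly6Chi, 120706 to 229905 in Ly6Clo, 8589.7 to 47386 in eYFP- and 1505 to 2896 in eYFP+ libraries. The defining neutrophil marker Ly6g was at 407 to 791 in Ly6Clo and at 44.9 to 81.4 in Ly6Chi libraries. Among the macrophages, eYFP- library 2 had the highest marker sum and the highest Trem3, at 83.3, but a Trem1 of 8.18, below both other eYFP- libraries. The part of these cells in the Trem1 and Trem3 levels was not tested.

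Trem2, the lipid-binding receptor, had the reverse order, with eYFP+ macrophages at the top. Its normalized counts were 5374, 4279 and 2966 in eYFP+, 2754, 1758 and 1747 in eYFP-, 1651, 1874 and 1444 in Ly6Chi and 976, 951 and 1088 in Ly6Clo libraries. The eYFP+ libraries lay above all others, the eYFP- and Ly6Chi libraries overlapped, and the Ly6Clo libraries lay below all others. The range over groups was narrow for this set of genes, from a mean of 4206 ± 1205 to 1005 ± 72.8 (SD, n = 3).

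Treml4, a Trem-like receptor known to bind dying cells, was abundant in every group except Ly6Chi monocytes. It was at 26720.2, 65740.4 and 33066 normalized counts in Ly6Clo monocytes, at 40476, 20702.5 and 20057 in eYFP+ and at 26669, 19528 and 20442.5 in eYFP- macrophages, against 2922, 2263 and 2970.2 in Ly6Chi monocytes. The Ly6Chi libraries lay below all others, and the other 3 groups overlapped their neighbours in this order. Treml2, a Trem-like receptor that is not known to need Tyrobp, was low and scattered. Its normalized counts were 819, 325 and 489.6 in Ly6Chi, 84.0, 167 and 281 in eYFP-, 153, 2.68 and 70.1 in Ly6Clo and 13.4, 56.3 and 40.7 in eYFP+ libraries. The lowest Treml2 value, in Ly6Clo library 2, lay under the level of 3 counts in that library, 4.02 normalized counts.

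Cd300e, an activating receptor of the Cd300 family that pairs with Tyrobp, had the widest range of group means. It was at 18353, 42866 and 24804 normalized counts in Ly6Clo monocytes and at 50.9, 30.4 and 3.64 in Ly6Chi monocytes, where the last value is the level of 3 counts in that library. Macrophages lay in between, with 3138, 479 and 424 in eYFP+ and 3544, 1259 and 1443 in eYFP-. In both macrophage groups library 1 was the highest, the groups overlapped, and neither overlapped a monocyte group.

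Tyrobp itself had the narrowest range of group means. Its normalized counts were 83527, 86288 and 88135 in Ly6Chi, 76863, 35272 and 83035.5 in Ly6Clo, 68376, 54912 and 54272 in eYFP+ and 36705, 44514.5 and 42833 in eYFP- libraries. The low Ly6Clo value came from library 2, the library that stood apart, and the other two lay above all macrophage libraries.

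**Figure D1:**
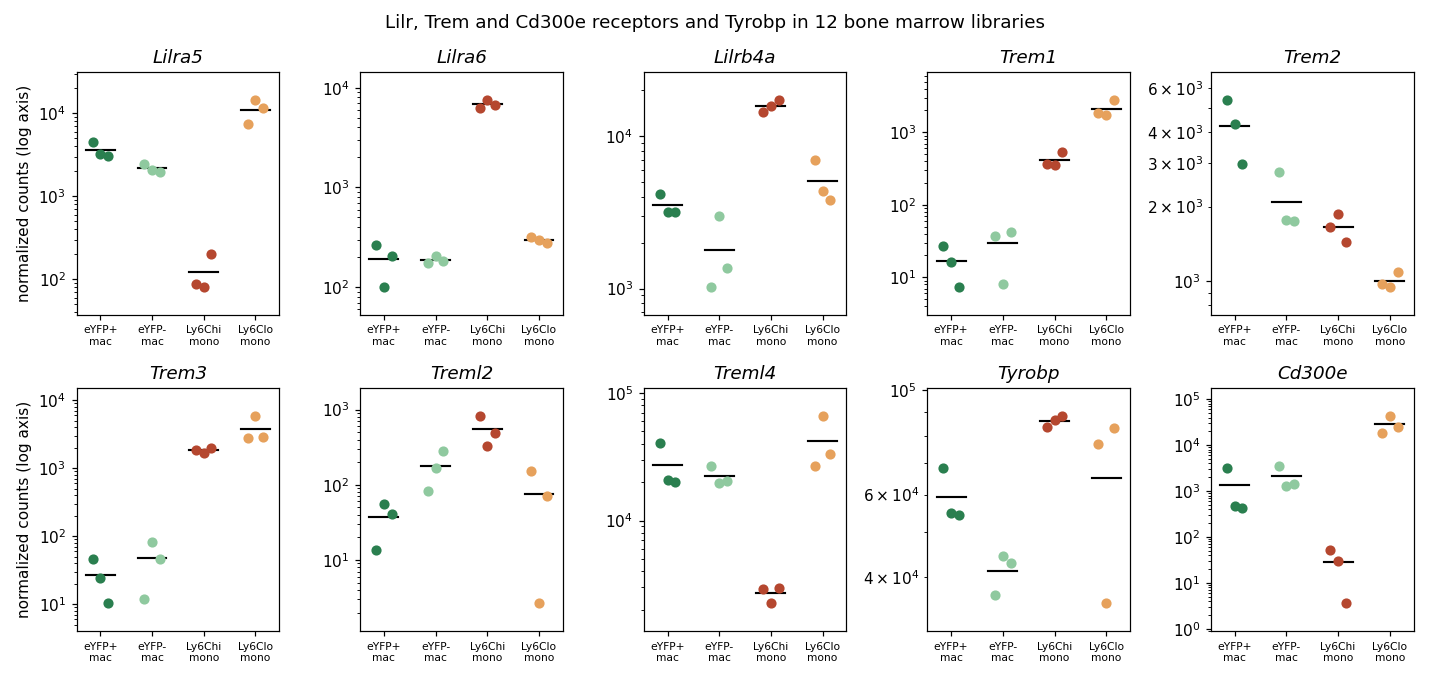
Normalized counts (log axis, a scale of its own in each panel) of the 10 members in the 12 libraries, by group; each point is a library and each bar the mean of 3 libraries. Lilra5, Treml4 and Cd300e are lowest and Lilra6, Lilrb4a and Treml2 highest in Ly6Chi monocytes, and Trem2 is highest in eYFP+ macrophages.

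The 9 receptors together had similar summed levels in most groups, but different genes made up the sum. By TPM the sum was 1007 to 1614 in eYFP+, 843 to 1028 in eYFP-, 918 to 1025 in Ly6Chi and 1888 to 3425 in Ly6Clo libraries. Treml4 made up 59.5% to 66.4% of it in eYFP+ and 66.7% to 72.4% in eYFP- macrophages. In Ly6Chi monocytes Lilrb4a made up 55.0% to 59.0% and Lilra6 15.1% to 17.9%, whereas Treml4 made up 6.47% to 8.79%. Ly6Clo monocytes held 41.7% to 50.4% Treml4 and 22.8% to 26.2% Cd300e. Trem2 made up 14.1% to 19.7% of the sum in eYFP+ macrophages, 9.62% to 11.8% in eYFP-, 6.24% to 8.60% in Ly6Chi and 1.17% to 2.44% in Ly6Clo. The receptor sum was 0.129 to 0.136 times the TPM of Tyrobp in Ly6Chi and 0.190 to 0.330 times in macrophages. In Ly6Clo the ratio was 0.270 and 0.295 in libraries 1 and 3 and 1.196 in library 2, where Tyrobp was low.

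**Figure D2:**
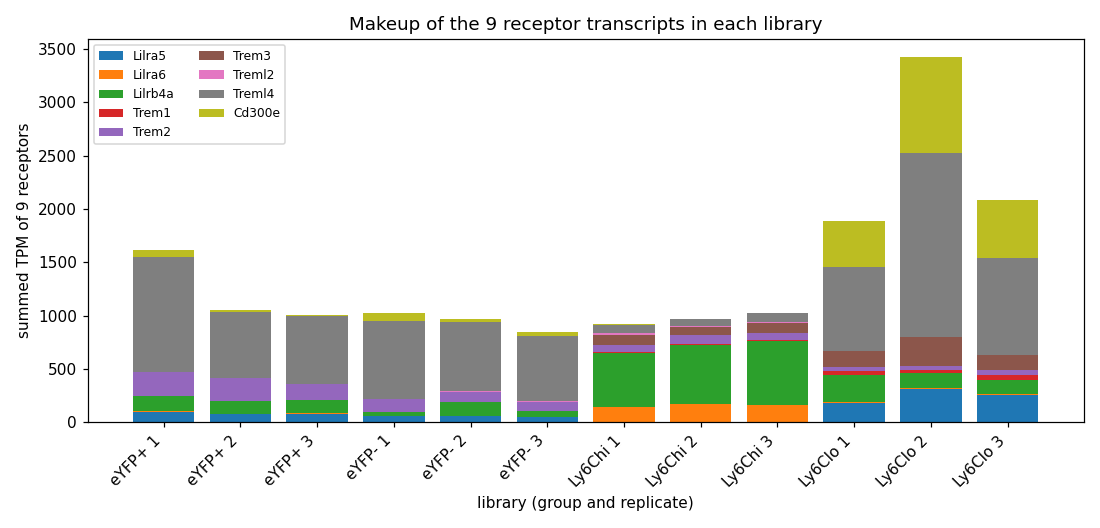
Summed TPM of the 9 receptors (bar height, linear axis from 0) in each of the 12 libraries, split by receptor. Treml4 fills most of the bar in macrophages, Lilrb4a in Ly6Chi monocytes, and Treml4 with Cd300e in Ly6Clo monocytes.

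The comparison of embryonic with adult-derived macrophages asks whether the origin of a macrophage goes with its receptors. None of the 10 members passed adjusted p under 0.05 in DESeq2, where 2.04% of all genes tested passed, 0.153% as higher and 1.88% as lower in eYFP+. In edgeR none passed either. Nearest to the threshold was Trem2, with a log2 difference of 1.01 ± 0.31 (SE), an adjusted p of 0.0562 in DESeq2 and 0.202 in edgeR, and no overlap between the groups. The call on Trem2 turned on the setting and on single libraries. With all 12 libraries the adjusted p was 0.0231 with a minimum of 10 counts in 3 libraries, 0.0307 with the replicate block, 0.0185 with both and 0.0484 with limma on log2(TPM + 1), and without eYFP- library 1, eYFP+ library 3 or Ly6Clo library 2 the adjusted DESeq2 p was 0.0104, 0.0191 or 0.0176. Lilrb4a differed by 0.97 ± 0.42 with an adjusted p of 0.369, and without eYFP- library 2, its highest eYFP- library, by 1.56 with an adjusted p of 0.00180. Treml2 differed by -2.27 ± 0.89 with an adjusted p of 0.250, and without Ly6Clo library 2 by the same amount with 0.00379. That library enters this contrast through the dispersion, which all 12 libraries share. Without both libraries that stood apart, an alternative chosen after seeing the data, 1 member passed, Treml2. Markers of other cells also moved between the macrophage groups: the summed level of 4 Ly6Chi monocyte markers was 275 to 485 normalized counts in eYFP+ and 865 to 4090 in eYFP-, that of 4 erythroid markers 85439 to 173688 and 201711 to 407383, that of 5 dendritic cell markers 202 to 745 and 1403 to 2157, and that of 4 T and NK cell markers 53.5 to 215 and 324 to 671, beside the neutrophil sums given above. The summed level of 8 bone marrow macrophage markers ran the other way, at 1958200 to 2809830 in eYFP+ and 1542890 to 1724070 in eYFP-. The part of these shifts in the member levels was not tested. The median log2 difference of the members was 0.15, beside 0.05 over all genes tested.

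The comparison of the monocyte subsets covered the 8 members other than Lilra5 and Lilra6. All members were chosen with earlier results of these data known, so their counts beside the shares of all genes are a description. In DESeq2 5 of the 8 passed, 2 as higher and 3 as lower in Ly6Chi, against 8.62% of all genes, 3.66% as higher and 4.97% as lower. Cd300e differed by -9.98 ± 0.84 on the log2 scale (SE, adjusted p = 3.25e-29), a fitted value that rests on few counts in Ly6Chi, where library 3 held 3 counts. When any Ly6Clo library was left out alone, DESeq2 gave no adjusted p for Cd300e in any comparison, and over the other fits that left out a library the difference ran from -10.72, without Ly6Chi library 1, to -9.46. Treml4 differed by -3.94 ± 0.42 (adjusted p = 1.54e-18 in DESeq2) and Trem1 by -2.34 ± 0.55 (adjusted p = 0.000680). In the other direction Lilrb4a was higher in Ly6Chi by 1.65 ± 0.42 (adjusted p = 0.00238 in DESeq2). Treml2 was higher by 2.85 ± 0.88 with an adjusted p of 0.0196 in DESeq2 but 0.136 in edgeR, and it lost the call with limma on log2(TPM + 0.1), at 0.0762, and without Ly6Clo library 3, Ly6Chi library 1 or Ly6Chi library 3, at 0.0517, 0.158 or 0.0682. Its difference ran from 2.29, without Ly6Clo library 2, to 3.89, without Ly6Clo library 1. In edgeR 4 of the 8 passed. Trem2 differed by 0.72 ± 0.31 (adjusted p = 0.145), Trem3 by -1.06 ± 0.62 (adjusted p = 0.330) and Tyrobp by 0.40 ± 0.33 (adjusted p = 0.542), and none of these 3 passed in DESeq2. Without Ly6Clo library 2 the Trem3 difference was -0.62 and the Tyrobp difference 0.11, and without Ly6Clo library 3 the latter was 0.62. The summed level of 5 dendritic cell markers was 4276 to 5219 normalized counts in Ly6Chi and 20321 to 91992 in Ly6Clo, and that of 6 osteoclast markers 700 to 1136 and 15437 to 22255. Of the osteoclast markers, Acp5 was at a mean of 10546 in Ly6Clo, 13552 in eYFP+ and 14545 in eYFP- macrophages. Calcr was at 0 in the Ly6Clo libraries, and the other osteoclast markers had higher means in Ly6Clo than in Ly6Chi. The highest dendritic sum was in Ly6Clo library 2, where it was nearly all Cd209a, 2 of the 5 markers were at 0, and Treml4 and Cd300e were at their highest. Without that library Treml4 differed by -3.46, and the part of such cells in the member levels was not tested. The median of the 8 was -0.33, beside 0.02 over all genes.

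Macrophages were set against monocytes in 3 ways that share the macrophage libraries: against the average of the log levels of both subsets, against Ly6Chi alone and against Ly6Clo alone. Lilra5 and Lilra6, chosen on their monocyte values, have no test in any of them. Against the average, 6 of the other 8 members passed in DESeq2 and 6 in edgeR, 2 as higher and 4 as lower in macrophages, where 35.4% of all genes passed, 20.3% as higher and 15% as lower. Trem3, Trem1 and Lilrb4a were lower, by -6.22 ± 0.45, -5.41 ± 0.41 and -1.83 ± 0.30 on the log2 scale (SE). Their adjusted DESeq2 p-values were 1.10e-41, 7.78e-39 and 7.53e-09. Tyrobp was lower by -0.60 ± 0.24 (adjusted p = 0.0350 in DESeq2), and this call was lost when any of 10 of the 12 libraries was left out, with an adjusted p from 0.0728 to 0.140 in those fits. Trem2 was higher by 1.20 ± 0.22 (adjusted p = 5.17e-07 in DESeq2). Treml4 was also called higher, by 1.20 ± 0.30, with the mean of the macrophages between those of the subsets. As a description, Lilra6 differed by -2.92 and Lilra5 by 1.26 on the same scale, although the arithmetic mean of Lilra5 was 2875 in macrophages and 5597 over the monocytes: a contrast of log levels weighs the low Ly6Chi values more. Treml2 (-1.33, adjusted p = 0.0862) and Cd300e (0.89, adjusted p = 0.252) missed the threshold in DESeq2, and without Ly6Clo library 2 Treml2 passed at -1.66 (adjusted p = 0.000442), whereas without Ly6Clo library 1 it differed by -0.81. The Cd300e value ran from 0.11, without eYFP+ library 1, to 1.26, without Ly6Chi library 1, and was 0.27 without both libraries that stood apart. The erythroid marker sum was 3944 to 14018 normalized counts in the monocytes, below the macrophage values given above, and its part was not tested. The median of the 8 members was -0.96, beside 0.08 over all genes.

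Against Ly6Chi monocytes alone, all 8 members tested passed in DESeq2 and in edgeR, 3 as higher and 5 as lower in macrophages, beside 30.7% of all genes, 17.5% as higher and 13.2% as lower. Cd300e (5.88 ± 0.74), Treml4 (3.17 ± 0.36) and Trem2 (0.84 ± 0.27) were higher in macrophages, with adjusted DESeq2 p-values of 3.39e-14, 5.57e-17 and 0.00857. The Cd300e difference ran from 5.10, without eYFP+ library 1, to 6.62, without Ly6Chi library 1. Lower were Trem3 (-5.69 ± 0.55), Trem1 (-4.24 ± 0.49), Treml2 (-2.75 ± 0.76), Lilrb4a (-2.66 ± 0.36) and Tyrobp (-0.80 ± 0.29), the last with an adjusted p of 0.0221. The Trem2 call was lost without Ly6Chi library 1 or 3, with an adjusted DESeq2 p of 0.0566 or 0.0844. That of Tyrobp was lost without any of the 3 Ly6Chi libraries, eYFP- library 1 or 3, or eYFP+ library 2 or 3, with an adjusted p from 0.0518 to 0.0962. With all 12 libraries the Tyrobp call was also lost in limma on log2(TPM + 1) and log2(TPM + 0.1), at adjusted p-values of 0.0885 and 0.0831. The median of the 8 was -1.73, beside 0.07 over all genes.

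Against Ly6Clo monocytes alone, 5 of the 8 members passed in DESeq2 and in edgeR, 1 as higher and 4 as lower, beside 30.2% of all genes, 17% as higher and 13.2% as lower. Trem2 was higher in macrophages by 1.56 ± 0.27 (adjusted p = 1.25e-07 in DESeq2). Trem3 (-6.75 ± 0.55), Trem1 (-6.58 ± 0.49), Cd300e (-4.10 ± 0.72) and Lilrb4a (-1.01 ± 0.36) were lower, with adjusted DESeq2 p-values of 4.96e-33, 3.55e-39, 1.53e-07 and 0.0217. Without eYFP+ library 1 the Cd300e difference was -4.88. Lilrb4a lost the call without Ly6Clo library 1, its highest Ly6Clo library, at -0.71 with an adjusted p of 0.167, and also without eYFP- library 3, eYFP+ library 2 or eYFP+ library 3, at 0.0661, 0.0525 and 0.0516. With all 12 libraries Lilrb4a lost it in limma on log2(TPM + 1) and log2(TPM + 0.1), at adjusted p-values of 0.0637 and 0.0635. Treml4 differed by -0.77 ± 0.36 with an adjusted p of 0.0931, and was called lower without Ly6Clo library 1 (0.0352) or eYFP+ library 1 (0.0152), but differed by only -0.34 without Ly6Clo library 2, its highest library. Tyrobp differed by -0.40 ± 0.29 with an adjusted p of 0.323, without Ly6Clo library 2 by -0.74 with 0.000288, and without Ly6Clo library 3 by -0.19. Treml2 differed by 0.10 ± 0.77 (adjusted p = 0.946 in DESeq2), by -0.52 without Ly6Clo library 2 and by 1.13 without Ly6Clo library 1. Without both libraries that stood apart, 7 members passed against the average, 8 against Ly6Chi and 7 against Ly6Clo. The share of all genes that passed in that fit was not taken, so these counts have no share beside them. The median of the 8 members tested against Ly6Clo was -0.89, beside 0.07 over all genes.

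**Figure D3:**
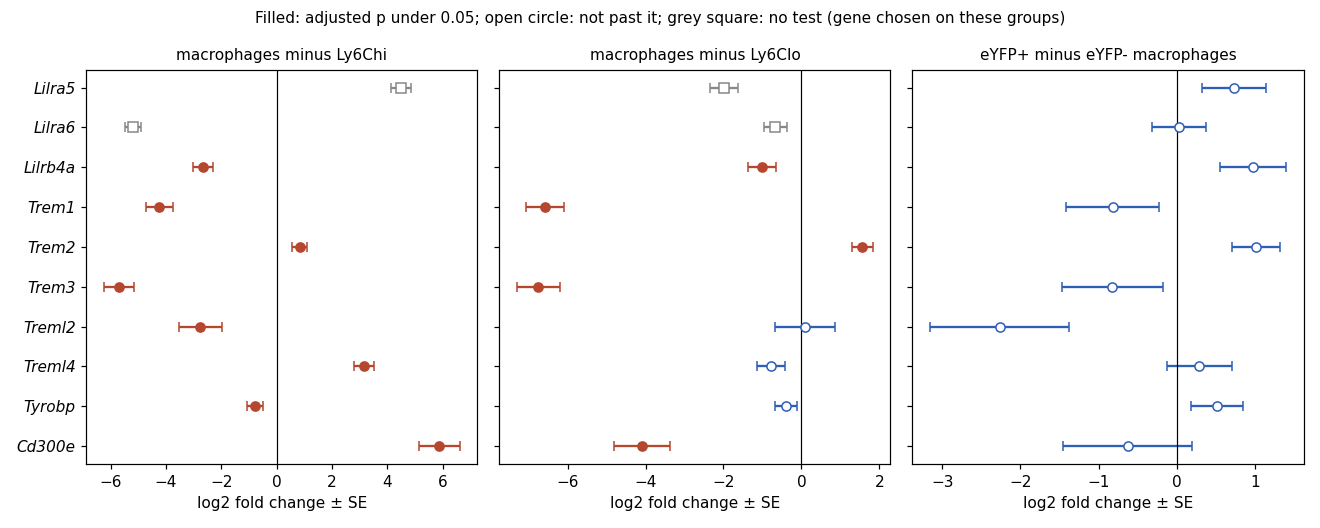
Log2 fold changes with standard errors of the 10 members from DESeq2 in 3 comparisons: macrophages against Ly6Chi, macrophages against Ly6Clo, and eYFP+ against eYFP- macrophages. Filled points passed adjusted p under 0.05 (8 of 8, 5 of 8 and 0 of 10), and grey squares are the genes selected on these groups, shown with no test.

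The other genes of the receptor families and their signalling partners were taken from lists, of which 49 genes were tested. Between the macrophage groups 0 were higher and 4 lower in eYFP+ in DESeq2: Cd300lg, Sirpb1a, Cd200r3 and the adaptor Lat2. In edgeR 0 of them passed. Between the monocyte subsets 3 were higher and 11 lower in Ly6Chi, and against the monocyte average 12 were higher and 19 lower in macrophages. Against Ly6Chi alone 12 were higher and 20 lower, and against Ly6Clo alone 6 were higher and 21 lower. The shares of all genes that passed are those given above for each comparison.

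Among the other Lilr and Pir genes, Pira2, an activating Pira receptor, was higher in macrophages by 2.02 ± 0.18 (adjusted p = 1.45e-28 in DESeq2), at 2210 to 3579 normalized counts against 259 to 368 in Ly6Clo and 1404 to 1458 in Ly6Chi. Lilr4b was lower by -2.73 ± 0.29 (adjusted p = 4.13e-19 in DESeq2), with Lilrb4a as its neighbour in the genome. The inhibitory Pirb differed by -0.12 ± 0.19 (adjusted p = 0.702). Between the subsets, Pira2 (2.28) and Pirb (1.03) were higher in Ly6Chi, with adjusted DESeq2 p-values of 6.27e-17 and 0.00414. The platelet receptor Treml1, the only other Trem gene tested, was higher in macrophages by 5.40 ± 1.02 (adjusted p = 1.09e-06 in DESeq2), at 5.18 to 61.9 normalized counts, and was at 0 counts in 5 of the 6 monocyte libraries. The summed level of 4 megakaryocyte and platelet markers was 1362 to 3250.3 normalized counts in macrophage, 819 to 963 in Ly6Clo and 44.9 to 77.4 in Ly6Chi libraries. All 5 Treml1 counts of the monocytes were in Ly6Chi library 1, where the marker sum was 77.4, against 44.9 and 51.0 in Ly6Chi libraries 2 and 3. The Ly6Clo libraries held higher sums and no Treml1 count. Pf4, a platelet chemokine, was at a mean of 804 of the Ly6Clo sum, and the part of these cells in the Treml1 level was not tested.

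Of the other Cd300 genes, 10 were tested, and 3 were higher and 3 lower in macrophages than in monocytes. Cd300lf was higher by 1.45 ± 0.23 on the log2 scale and Cd300lg was lower by -8.65 ± 0.75 (adjusted p = 2.94e-09 and 3.67e-29 in DESeq2). Cd300ld had the Ly6Clo pattern of Cd300e: it was at 26208, 65487 and 28858 normalized counts in Ly6Clo and at 2707 to 3797 in Ly6Chi libraries (log2 difference -3.62 ± 0.39, adjusted p = 7.91e-18 in DESeq2). In macrophages it was at 974 to 1569.7, below both monocyte groups, whereas Cd300e lay between them. Among those with a mean of at least 50 normalized counts, Cd300c2 had the largest called rise against Ly6Chi alone, by 0.99 ± 0.21 (adjusted p = 3.55e-05 in DESeq2).

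Of the other signalling adaptors, Fcer1g, the ITAM adaptor of the Lilra and Pira receptors, differed by 0.03 ± 0.20 between macrophages and monocytes (adjusted p = 0.934 in DESeq2). Hcst, the PI3-kinase-binding adaptor encoded next to Tyrobp, was lower in macrophages by -0.99 ± 0.19 (adjusted p = 1.85e-06 in DESeq2). The T cell adaptor Cd247 was called higher in macrophages, with an adjusted p of 0.0131 in DESeq2 and 0.0600 in edgeR, but only the eYFP- libraries were high: they held 66.6, 21.6 and 37.7 normalized counts, against 0 to 6.66 in eYFP+, 0 to 5.30 in Ly6Chi and 0 to 4.06 in Ly6Clo libraries. The T and NK cell marker sums given above were also highest in eYFP-, with 14.6 to 96.8 in the monocytes, and their part was not tested. Among 9 other receptors that pair with Tyrobp, 3 were higher and 4 lower in macrophages. Sirpb1c, a signal-regulatory receptor, was lower by -6.31 ± 0.23, and Pilrb1, a paired Ig-like receptor, higher by 2.14 ± 0.18 (adjusted p = 1.76e-156 and 1.42e-30 in DESeq2). Against Ly6Chi alone Clec5a, an activating lectin receptor, had the largest called fall by the same rule, by -6.56 ± 0.80 (adjusted p = 5.68e-15 in DESeq2). Sirpb1a, Sirpb1b and Sirpb1c, like Pilrb1 and Pilrb2, are close copies whose reads may be split unevenly.

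Downstream of the adaptors, 1 of 14 kinases and effectors was higher in macrophages and 7 were lower. The exception was the B cell linker Blnk, at 4705 to 9617 normalized counts in macrophages against 63.2 to 111 in Ly6Chi and 568 to 745 in Ly6Clo (4.74 ± 0.24, adjusted p = 4.55e-81 in DESeq2). Lat2, the transmembrane adaptor also called NTAL, had the steepest fall, by -4.76 ± 0.30 (adjusted p = 1.73e-53 in DESeq2). It also differed between the macrophage groups, at 69.0, 86.8 and 21.5 in eYFP+ and 215, 222 and 275 in eYFP- libraries (-2.02 ± 0.44, adjusted p = 0.000656 in DESeq2 and 0.0643 in edgeR). Lat2 was at a mean of 3562 in Ly6Chi monocytes, and the Ly6Chi, neutrophil and erythroid marker sums given above were all higher in the eYFP- libraries too; their part in this difference was not tested. Syk differed by 0.09 ± 0.27 between macrophages and monocytes (adjusted p = 0.842). Of the phosphatases that inhibitory receptors recruit, Ptpn11 (-1.14 ± 0.25) and Ptpn6 (-0.61 ± 0.20) were lower in macrophages (adjusted p = 4.85e-05 and 0.00835 in DESeq2), and Inpp5d differed by -0.01 ± 0.33 (adjusted p = 0.990).

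The ligands did not share a direction. Apoe, a lipoprotein bound by Trem2, was at 22056 to 40390.2 TPM in macrophages, at 19343 to 27998 TPM in Ly6Clo and at 4408 to 6388 TPM in Ly6Chi monocytes. It was higher in macrophages than in the monocyte average by 1.25 ± 0.26 (adjusted p = 1.28e-05 in DESeq2), and against Ly6Clo alone it differed by 0.14 ± 0.32 (adjusted p = 0.802). Pglyrp1, a neutrophil granule protein that binds Trem1, was lower in macrophages by -6.79 ± 0.48 (adjusted p = 4.09e-44 in DESeq2), at 14.1 to 279.7 normalized counts against 4151 to 5136 in Ly6Chi and 22796 to 33058 in Ly6Clo. Trem1 had the same order of groups. The neutrophil marker sums given beside Trem1 and Trem3 apply to Pglyrp1 too, and their part in its level was not tested. Hmgb1 was higher by 0.50 (adjusted p = 0.0272 in DESeq2), and Adam10 (-0.76) and Adam17 (-0.35), proteases that shed Trem2, had adjusted p-values of 0.0689 and 0.180.

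**Figure D4:**
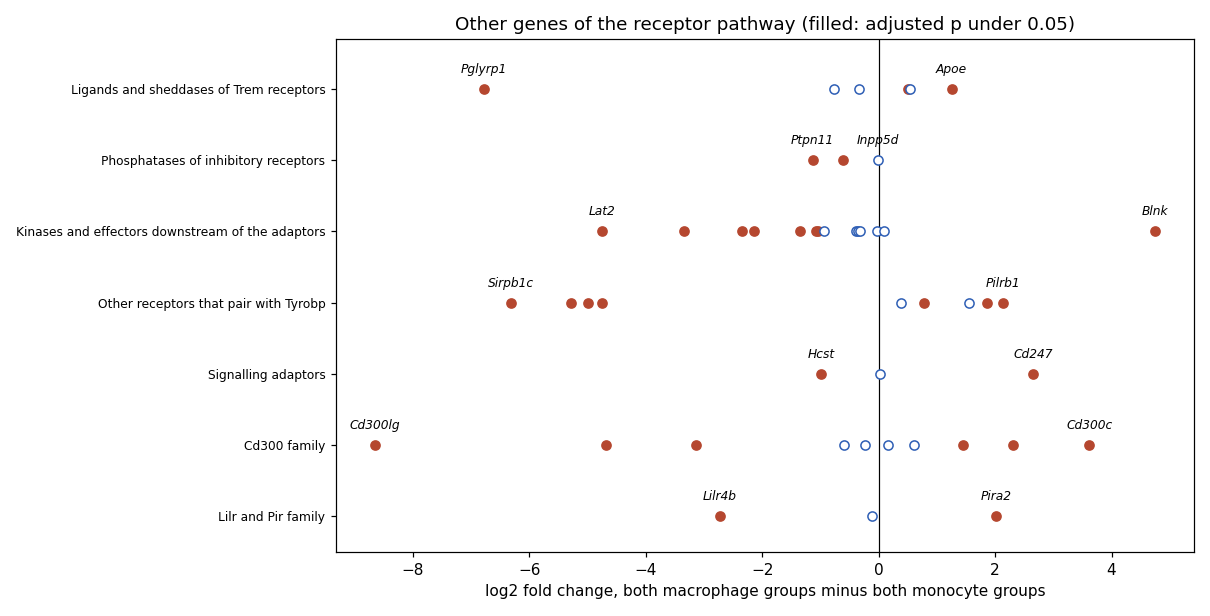
Log2 fold change, both macrophage groups minus both monocyte groups, of the tested genes that are not members, by list; filled points passed adjusted p under 0.05 in DESeq2 and the named genes are the lowest and highest of each list (Treml1, alone in its list, is left out). In each list except the phosphatases, the genes that passed lie on both sides of 0.

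Over the 12 libraries, the transcripts whose deposited variance-stabilised values most resembled Lilra5, Lilra6, Trem2 and Treml4 were ranked among 8300 genes by Pearson correlation, as a description over libraries that fall into 4 groups. Nearest to Lilra5 were Hfe (0.987), Snhg15 (0.981) and Sh2d1b1 (0.974). Treml4 stood at rank 6 (0.971) and Cd300e at rank 30 (0.917) in the same ranking. Nearest to Lilra6 were Ly6c1 (0.983), Tdrd7 (0.966) and Oasl2 (0.965), and Lilrb4a stood at rank 103 (0.870). Lilra5 and Lilra6 correlated at -0.864, which their choice for opposite patterns fixes in large part. For Treml4 the nearest were Bcl2a1a (0.989), Cd83 (0.988) and Bcl2a1b (0.983), where the Bcl2a1 genes are near-identical copies. Trem2 had weaker neighbours, Scamp2 (0.930), Cgrrf1 (0.927) and Cstb (0.926), and its correlation with Tyrobp was -0.116.

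Members that are neighbours in the genome did not all share a pattern. Trem1, Trem3, Treml4 and Treml2 follow each other on chromosome 17 in the RefSeq gene order. Trem1 and Trem3, side by side, had the same order of groups and were higher in both monocyte groups than in macrophages. Treml4 was high in macrophages and Ly6Clo monocytes, and Treml2 was highest in Ly6Chi monocytes. Lilra5, Lilra6 and Tyrobp lie on chromosome 7, Lilrb4a on chromosome 10 and Cd300e on chromosome 11.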

How the data were processed

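RNA of sorted bone marrow myeloid cells was measured in 12 libraries, 3 in each of 4 groups taken from the sample titles. The authors turned polyadenylated RNA into amplified cDNA, trimmed and error-corrected the paired reads, removed ribosomal RNA, aligned with segemehl to GRCm39 and deposited counts of unambiguous read pairs on the exons of each Ensembl gene from featureCounts. Strand use is not given in the sources used here. Near-identical copies therefore lose reads, and amplified reads are not independent molecules. The authors also deposited TPM values, made by dividing counts by the length of the gene with scaling per library, and variance-stabilised values close to a log2 scale, made with DESeq2. Per the submitters' processing notes, reads were converted with bcl2fastq 2.20.0.422.

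Symbols came from a GENCODE name table that matched 91.4% of identifiers. The main test was that of DESeq2 1.42.0 (R 4.3.3), which the study's methods name, with all 12 libraries in 1 fit and no covariate beside the group. Its Wald tests gave unshrunken log2 fold changes with standard errors, and p-values were adjusted by Benjamini-Hochberg over all genes tested with a threshold of 0.05. Lilra5 and Lilra6, chosen on the monocyte groups, had no test in any comparison that used them. The alternatives were edgeR 4.0.16 (quasi-likelihood), TMM factors, a filter of at least 10 counts in 3 libraries, DESeq2 without its independent filtering or without its Cook's cutoff, a replicate block, limma 3.58.1 on log2(TPM + 1) and log2(TPM + 0.1), a GC correction, and leaving out each library. The scripts were tested on simulated data.

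The members and all gene lists were chosen with earlier results of these data known. All members were named whatever their values, with the gene of largest change in each direction per list and contrast (adjusted p under 0.05, mean of at least 50 normalized counts), the 3 genes most like Lilra5, Lilra6, Trem2 and Treml4 (mean TPM of at least 5), and markers beside a member. Cd247, Treml1, Pirb, Fcer1g, Syk, Ptpn6, Inpp5d, Cd300ld, Sirpb1a, Sirpb1b, Cd200r3, Hmgb1, Adam10 and Adam17 lay outside this rule in the contrast shown and were chosen after their values were seen. 5 listed genes matched no row by symbol and were not analysed here.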

Additional observations from a re-analysis of the deposited data

How the results depend on the processing

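Over 11 alternatives and 12 fits that left out a library, 105 of 115 counts of members called stayed within 1.5 times the reported count. Of the log2 differences of single members, 1060 kept their direction and, where tested, their side of the threshold. These include differences of Lilra5 and Lilra6 with no test, which have no side to keep. A further 36 lost the call, 20 gained it, 17 changed sign and 2 with no test moved. Between the macrophage groups, where 0 members were called, 1 passed with a minimum of 10 counts in 3 libraries, with the replicate block, with the block and that minimum together, with limma on log2(TPM + 1), and without both libraries that stood apart. With single libraries left out the count ran from 0 to 2, the highest without Ly6Clo library 2. Between the monocyte subsets it ran from 3, without Ly6Clo library 3, to 5. In fits that left out a Ly6Clo library alone Cd300e had no adjusted p, so its 15 values there are missing and it could not be counted. The cause of the other changes was not tested. Shares of all genes that passed were taken from the reported fit only, so the counts under other settings have none beside them.

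The differences that changed sign were smaller than their standard errors in the reported fit. Lilra6 between the macrophage groups was at -0.0020 with TMM factors, -0.011 with the replicate block, -0.013 with the block and the minimum count, -0.082 and -0.11 with limma at the larger and smaller pseudocount, -0.29 without both libraries that stood apart, and from -0.28 to 0.32 with single libraries left out. In the same comparison Treml4 was at -0.13 without both libraries and from -0.12 to 0.46 with single libraries left out, and Cd300e ran from -2.20 to 0.0034. Treml2 against Ly6Clo was at -0.030 with the GC correction, -0.32 without both libraries, and from -0.52 to 1.13 with single libraries left out. The Tyrobp difference between macrophages and monocytes lost its call with limma on log2(TPM + 1) (adjusted p = 0.162) and with no independent filtering (0.0669). With the GC correction 7, 8 and 7 members were called for macrophages against the monocyte average, Ly6Chi and Ly6Clo.

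The replicate numbers in the titles were not shown to pair the libraries. Deviations of same-numbered libraries from their group means correlated at 0.198, 0.0350 and 0.0658 in macrophages and at 0.0232, -0.0121 and 0.0179 in monocytes over 2000 genes, and 2 of 6 macrophage and 4 of 6 monocyte libraries were closest to the library of their own number. With the replicate block 1, 5, 5, 8 and 5 members were called between macrophage groups, between monocyte subsets, and for macrophages against the monocyte average, Ly6Chi and Ly6Clo, against 0, 5, 6, 8 and 5 without it; Trem2 gained its call (adjusted p = 0.0307) and Tyrobp lost it (0.0823). Levels of 3 counts or fewer, as of Cd300e in Ly6Chi library 3 and Treml2 in Ly6Clo library 2, limit what depth can show.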
